A study of Rattus norvegicus with 16 samples.

Results

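Gene expression was compared between 2 titanium implant surfaces, AT-I with nanoscale features and AT-II with a microrough surface that lacks them, in cells that adhered to implants taken from rat tibiae 4 days after placement. The comparison used every array titled for AT-I or AT-II at day 4, which was 8 of the 16 arrays of the series, 4 for each surface. Each male Sprague Dawley rat carried both surfaces, 2 implants of commercially pure titanium per tibia with AT-I on one side and AT-II on the opposite side; there were 4 rats for each day, and ketoprofen was given to all after surgery. The day 2 arrays, 8 in number, came from other rats treated alike. They entered here for the spread, for the level reached before day 4 and for the surface difference at day 2. Implants were freed by fracturing the bone and rinsed, and RNA from the 2 implants of a tibia was pooled as 1 sample on an Affymetrix Rat Gene 1.1 ST array. Replicate numbers were not tied to rats in the labels.

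In the first days after an implant is placed, its surface is reached by blood, then by neutrophils and macrophages, and then by mesenchymal cells that become osteoblasts. Osteoblasts are directed by the transcription factors Runx2 and Sp7, lay down collagen I, and later make mineral-binding proteins such as bone sialoprotein and osteocalcin. Surface texture is known to affect how such cells attach and mature, and the comparison asked whether the transcripts of adherent cells differed between the textures at day 4.

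The adherent cells were a mixture. Some osteoblast, haemoglobin and neutrophil genes were bright on every day 4 array. Ibsp, which encodes bone sialoprotein, lay between 11.65 and 11.95 (log2 expression, the scale of every level below). Hbb, a haemoglobin chain, lay between 13.25 and 13.50, and S100a9, a neutrophil calcium-binding protein, between 12.53 and 12.90. Others were low, such as the neutrophil gene Ltf (3.92 to 4.77) and Mepe (5.00 to 5.64), a gene of mineralising osteoblasts and osteocytes. In such mixed samples, fewer cells of a type and less RNA per cell cannot be told apart. Differences are given as AT-I minus AT-II on the log2 scale, with the SE of the limma fit to 17245 genes, and n is 4 arrays per surface throughout. The interquartile range over genes, a measure of how widely an array's values were spread, was 2.94, 3.41, 2.60 and 3.19 for AT-I replicates 1 to 4 and 3.38, 3.14, 3.10 and 3.42 for AT-II. Its means were 3.04 ± 0.349 and 3.26 ± 0.164 (SD, n = 4 each; exact permutation test, two-sided, p = 0.343, where the smallest possible p is 0.0286), so AT-I replicate 3 had the narrowest spread and the groups overlapped.

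No gene passed the test between the surfaces at day 4. With limma and Benjamini-Hochberg adjustment, 0 of 17245 genes (0%) had an adjusted p under 0.05, and the smallest adjusted p was 0.913. Without adjustment, 687 genes had p under 0.05 in limma, where 862 would be reached by chance if no gene differed. Of these, 438 (2.54% of the genes tested) were higher on AT-I and 249 (1.44%) were lower. The 4 arrays of each surface did not overlap for 136 genes that were higher on AT-I (0.789%) and 243 that were lower (1.41%). The median difference over all genes was -0.03, and the 5th and 95th percentiles were -0.27 and 0.42. A higher mean on AT-I was found for 41.8% of genes, and for 63.2% once arrays were centred on their medians. Among genes with a mean of at least 6, the median difference was -0.09 and 23.4% were higher on AT-I, which is the background for the lists of brighter genes below. Genes with a mean below 6 were thus higher on AT-I more often than the 41.8% of all genes.

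The intervals show the range of differences that the data leave for each gene. They were not adjusted for the number of genes, so a difference whose interval excluded 0 could still fail the test. For 16243 genes (94.2%) the 95% interval of the difference lay within 1 on either side of 0, which is a 2-fold change, and for 9548 it lay within 0.5. At the median, the interval reached 0.34 to either side of the estimate. Only 7 genes differed by more than 1, all of them higher on AT-I: the receptor genes Or52a5, Vom2r31, Or4k48, Or6c1h and Or4k48b of smell and pheromone sensing, together with Rup2 and Slc7a12. None of the 7 passed the test, and they were chosen for their size.

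Genes that drive and carry out bone formation had almost the same mean level on both surfaces. Of 59 genes on a panel of bone, matrix, signalling, resorption, adhesion, inflammation, vessel and proliferation genes, 54 were measured, 0 passed the test, and the median difference was -0.07. The panel genes Spp1, Tnc, Acp5, Kdr and Pecam1 were not analysed here, because no array row named them alone. Among 13 measured panel genes of osteoblasts and mineral, the differences ran from -0.22 to 0.06 with a median of -0.03.

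Runx2, the transcription factor that commits cells to the osteoblast lineage, measured 9.04, 8.65, 8.81 and 8.87 in AT-I replicates 1 to 4 and 9.02, 8.70, 8.91 and 8.68 in AT-II. The surfaces overlapped fully, and the difference was 0.01 ± 0.17 with a 95% interval of -0.35 to 0.37. Sp7, which acts after Runx2, measured 8.65, 8.29, 8.36 and 8.63 on AT-I and 8.86, 8.47, 8.48 and 8.23 on AT-II. Its difference was -0.03 ± 0.25. Col1a1, the main chain of collagen I, was the most even of these genes, with 13.35, 13.27, 13.25 and 13.29 on AT-I against 13.35, 13.33, 13.40 and 13.19 on AT-II. Alpl, the phosphatase that frees phosphate for mineral, gave 11.20, 11.02, 10.81 and 10.74 on AT-I and 11.06, 11.05, 11.24 and 10.56 on AT-II, a difference of -0.03 ± 0.26.

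Later genes of mineralised matrix varied more between arrays of the same surface than between surfaces. Bglap, which encodes osteocalcin, measured 11.76, 10.84, 10.10 and 11.48 on AT-I and 12.17, 9.31, 11.59 and 11.25 on AT-II. Its highest and its lowest array were both AT-II, and the difference was -0.03 ± 0.60 (95% interval -1.32 to 1.25). Ibsp, in contrast, measured 11.95, 11.78, 11.79 and 11.87 on AT-I and 11.83, 11.91, 11.90 and 11.65 on AT-II. All 8 Ibsp values lay close together, but its 95% interval, -1.51 to 1.56, was wide because the fit shares its spread with the day 2 arrays. Phex, an endopeptidase of phosphate control, gave 9.97, 8.89, 8.63 and 9.87 on AT-I and 10.16, 8.43, 9.60 and 9.19 on AT-II, a difference of -0.01 ± 0.39. Dmp1, a mineral-binding protein of osteocytes, was at 10.75, 9.72, 9.65 and 10.35 on AT-I and 10.99, 10.01, 10.38 and 9.99 on AT-II. Replicate 1 was the highest of its group on both surfaces for Phex and Dmp1, and the groups overlapped.

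Of these 4 later genes, Bglap had the least and Ibsp the most even values, so the 250 bases before each start site are shown, from RefSeq on GRCr8, 5′ to 3′ on the minus strand that carries both genes. Capitals mark a Runx-type motif, ACCACA on the strand shown or TGTGGT for its reverse complement. Bglap lies at chr2:176137319-176137568 and Ibsp at chr14:5757243-5757492.
Bglap: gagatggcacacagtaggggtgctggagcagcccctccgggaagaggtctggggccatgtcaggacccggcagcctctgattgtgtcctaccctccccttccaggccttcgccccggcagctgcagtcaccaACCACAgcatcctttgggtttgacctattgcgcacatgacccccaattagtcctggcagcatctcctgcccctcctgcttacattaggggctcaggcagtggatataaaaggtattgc
Ibsp: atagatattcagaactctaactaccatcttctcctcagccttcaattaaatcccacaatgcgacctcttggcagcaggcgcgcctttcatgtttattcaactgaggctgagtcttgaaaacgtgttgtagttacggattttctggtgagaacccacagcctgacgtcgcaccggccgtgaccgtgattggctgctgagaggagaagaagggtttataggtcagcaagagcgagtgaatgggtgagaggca
The Bglap stretch held 1 match, which begins 118 bases before the start site, and the Ibsp stretch held 0. Of 33469 promoter stretches of the same length, 4842 (14.5%) held the motif on either strand. These matches describe letters only.

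Most of these bone genes differed far more between the days than between the surfaces. Panx3, a channel protein of osteoblasts, was 4.18 higher at day 4 than at day 2 on AT-I and 3.83 higher on AT-II, while its surface difference at day 4 was -0.10 ± 0.55. For Bglap the differences from day 2 were 3.81 and 3.44, for Phex 4.24 and 3.85, and for Dmp1 3.46 and 3.53. Ifitm5, a membrane protein of mineralising osteoblasts, was 2.85 and 2.66 above its day 2 level, with a surface difference of -0.06 ± 0.27 at day 4. Over the 13 panel genes of osteoblasts and mineral, the median difference from day 2 was 2.23 on AT-I and 1.93 on AT-II. Among them, Mepe and Sost were only 0.07 and 0.14 above day 2 on AT-I, and 0.25 and 0.50 above it on AT-II. Their surface differences at day 4 were -0.13 and -0.16.

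**Figure D1:**
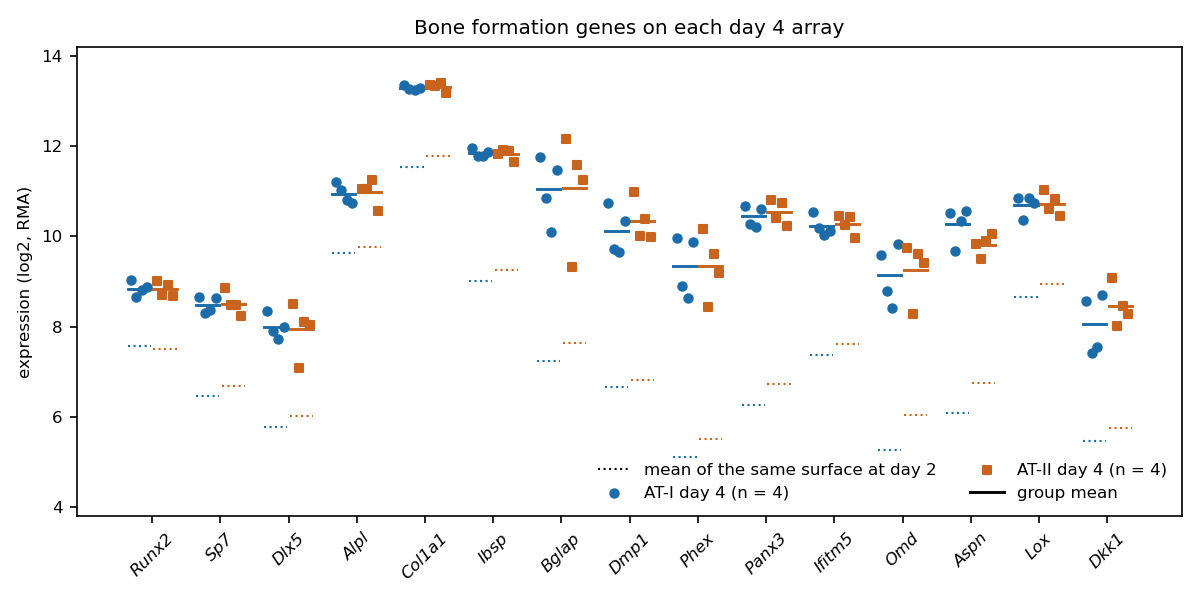
Expression (log2, vertical axis) of 15 bone formation genes on each day 4 array, with circles for AT-I, squares for AT-II, solid bars for the mean of 4 arrays and dotted bars for the mean of the same surface at day 2. The circles and squares of each gene overlap, and the solid bars lie above the dotted bars for every gene drawn.

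Among 6 measured matrix genes of the panel, the median difference was -0.02. Aspn, a small leucine-rich matrix protein that can bind collagen, had the highest difference among them: it measured 10.51, 9.68, 10.34 and 10.57 on AT-I and 9.82, 9.50, 9.90 and 10.05 on AT-II. Replicate 2 was the lowest of each group, 3 of the 4 AT-I values exceeded all AT-II values, and the difference was 0.45 ± 0.53. Postn, a matricellular protein of periosteum, differed by -0.02 ± 0.44, Lox, which crosslinks collagen, by -0.02 ± 0.29, and Dcn, a collagen-binding proteoglycan, by 0.07 ± 0.35. Fn1, or fibronectin, differed by -0.18 ± 0.15 and reached its highest value, 12.18, in AT-II replicate 2.

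The broader lists of bone genes held the same picture. In 28 measured genes of early osteoblasts and collagen matrix, 0 passed the test, 0 were without overlap and the median difference was -0.05. In 20 genes of mineralising osteoblasts and osteocytes, the median was -0.11, with 1 gene without overlap in each direction (0.789% of all genes higher and 1.41% lower). Fgf23, a hormone of phosphate control, gave 4.78, 5.31, 4.87 and 4.82 on AT-I and 4.42, 4.56, 4.42 and 4.67 on AT-II, a difference of 0.43 ± 0.19 without overlap. All its values lay below 6, where genes were more often higher on AT-I than brighter genes were. Slc20a2, a phosphate transporter, lay between 7.13 and 7.29 on AT-I and between 7.30 and 7.45 on AT-II. The 10 measured osteoblast transcription factors had a median of -0.05, with Dlx3 at -0.23 and Dlx5 at 0.06 as the extremes.

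Of 9 panel genes for signals that promote or restrain bone formation, 8 had a lower mean on AT-I, and 0 passed the test. Bmp2, a ligand that induces osteoblasts, measured 6.33, 6.38, 5.60 and 6.27 on AT-I and 6.81, 6.40, 6.42 and 6.64 on AT-II. Every AT-I value lay below every AT-II value, the difference was -0.42 ± 0.22, and without AT-I replicate 3 it was -0.24. Smad5, which carries the BMP signal to the nucleus, lay between 8.17 and 8.34 on AT-I and between 8.37 and 8.60 on AT-II, also without overlap, with a difference of -0.24 ± 0.12. In 34 measured genes of BMP and TGF-beta signalling, 0 passed the test, 0 were higher and 2 were lower without overlap, namely these (0.789% and 1.41% over all genes), and the median was -0.10. Sostdc1, a secreted BMP and Wnt inhibitor, went the other way, with 5.77, 4.81, 5.52 and 5.21 on AT-I against 4.77, 4.82, 4.77 and 4.95 on AT-II, where AT-I replicate 2 lay among the AT-II values. These values lay below 6, where genes were more often higher on AT-I than brighter genes were.

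In 30 measured genes of Wnt signalling, the median was -0.08 and 0 genes were without overlap (0.789% of all genes higher and 1.41% lower). Dkk1, a secreted Wnt inhibitor, measured 8.57, 7.41, 7.54 and 8.70 on AT-I and 9.07, 8.01, 8.46 and 8.27 on AT-II, a difference of -0.40 ± 0.31 that ran from -0.62 without AT-I replicate 4 to -0.185 without AT-I replicate 2 when 1 array was left out. Fzd4, a Wnt receptor, gave 7.34, 7.38, 6.78 and 7.10 on AT-I against 7.43, 7.87, 7.30 and 7.70 on AT-II, with overlap only through AT-II replicate 3. Axin2, a target and brake of the pathway, differed by -0.02 ± 0.19. Among 21 genes of FGF and IGF signalling the median was -0.10, with Igf1 at -0.18 ± 0.28 and Fgfr2, a receptor of osteoblast precursors, at 0.06 ± 0.31.

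Bone resorption genes showed no surface difference that passed the test. Ctsk, the collagen-cleaving protease of osteoclasts, measured 11.34, 11.19, 11.28 and 12.06 on AT-I and 11.55, 11.91, 11.49 and 11.62 on AT-II. AT-I replicate 4 was the highest of the 8 and the other 3 AT-I values were the lowest, with a difference of -0.17 ± 0.49. Tnfrsf11a, the receptor that starts osteoclast formation, had the same arrangement within AT-I, at 6.95, 6.94, 7.08 and 7.84 against 7.29, 7.64, 7.67 and 7.39. Its ligand Tnfsf11 differed by 0.15 ± 0.19, and the decoy receptor Tnfrsf11b by 0.01 ± 0.24. In AT-I replicate 4, 9 of 12 osteoclast genes were the highest of their group, as were 4142 of all 17245 genes.

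Integrins and focal adhesion proteins, which tie cells to the matrix on a surface, were close in level. In 33 measured genes the median difference was -0.07 and all 33 intervals lay within 1 of 0. There was 1 gene without overlap, higher on AT-I, where the shares over all genes were 0.789% higher and 1.41% lower. That gene was Itga8, an integrin subunit that binds RGD-containing matrix proteins, with 6.60, 6.15, 6.16 and 5.98 on AT-I and 5.58, 5.80, 5.90 and 5.78 on AT-II, a difference of 0.46 ± 0.17. Itgb1, the common beta subunit, lay between 10.91 and 11.18 on all 8 arrays and differed by -0.07 ± 0.13. Ptk2, or focal adhesion kinase, differed by -0.11 ± 0.11 and Vcl, or vinculin, by -0.03 ± 0.20. Itga10, a collagen-binding subunit, measured 7.82, 7.74, 7.40 and 7.68 on AT-I and 8.52, 7.75, 8.04 and 7.55 on AT-II.

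**Figure D2:**
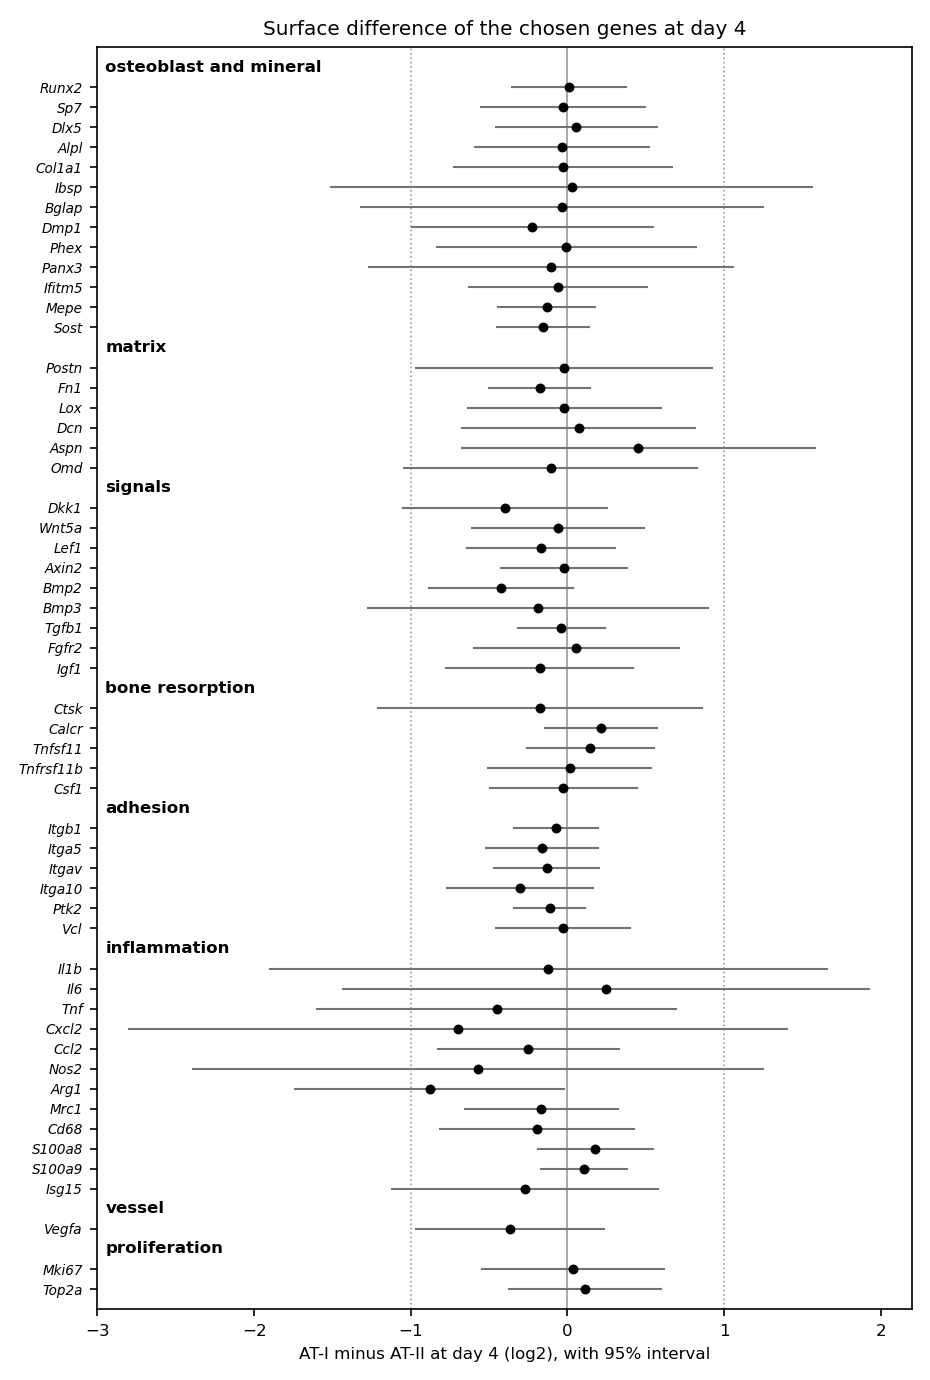
Difference AT-I minus AT-II at day 4 (log2, horizontal axis) for the 54 measured panel genes, as points with 95% intervals from the limma fit, and dotted lines at 1 on either side of 0. The interval of 39 genes stays between the dotted lines, that of Arg1 alone excludes 0, and the intervals of Cxcl2 and Nos2 are the widest.

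Of the 54 panel genes, 39 had an interval within 1 of 0, where the share over all genes was 94.2%. The intervals share their spread with the day 2 arrays, so a wide one need not mean uneven day 4 values, as for Ibsp. The only panel gene with an unadjusted p under 0.05 was Arg1, which encodes the arginase of tissue-repair macrophages. It measured 7.51, 7.63, 7.97 and 7.72 on AT-I and 8.35, 9.03, 8.44 and 8.53 on AT-II. The highest AT-I value, 7.97, lay below the lowest AT-II value, 8.35. The difference was -0.88 ± 0.40 (95% interval -1.74 to -0.02), with an adjusted p of 0.913 in limma, and it stayed between -1.23 and -0.73 in the other settings run. The SE shares its spread with the day 2 arrays, and the pooled SD of Arg1 over the day 4 arrays was 0.256. At day 2 its difference had been 0.15. Arg1 and Bmp2 were the 2 of 54 panel genes lower on AT-I without overlap, and 0 were higher, where the shares over all genes were 1.41% and 0.789%.

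Other macrophage genes differed less. In 21 measured macrophage genes, 20 lay below 0 with a median of -0.16 and 0 passed the test. Arg1 alone was without overlap, where the shares over all genes were 0.789% higher and 1.41% lower. Cd68, a lysosomal membrane protein of macrophages, measured 10.95, 11.56, 11.37 and 11.34 on AT-I and 11.19, 11.80, 11.56 and 11.45 on AT-II, a difference of -0.19 ± 0.29. Mrc1, the mannose receptor, differed by -0.17 ± 0.23, and Csf1r, the receptor on which macrophages depend, by -0.17 ± 0.21. AT-II replicate 2 was the highest of its group for 17 of the 21 genes, and for 4996 of all 17245 genes. Without that array the median was -0.04. In 10 measured genes of arginine metabolism, which include Arg1, the median was -0.08.

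All 20 measured lysosome genes and all 12 measured genes of MHC class II presentation lay below 0, each list with a median of -0.11. The lysosome median ran from -0.18 to -0.02 and that of MHC class II from -0.16 to -0.01 in the other settings, and both were -0.02 with each array centred. In AT-II replicate 2, 18 of the 20 lysosome genes were the highest of their group, and in AT-I replicate 1 the lowest values were those of 18 of the 20. Over all 17245 genes, these counts were 4996 and 3150. Npc1, the cholesterol transporter of lysosomes, differed by -0.34 ± 0.19.

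Inflammatory genes had wide intervals. Il1b measured 8.65, 10.29, 7.78 and 8.17 on AT-I and 7.93, 8.37, 8.60 and 10.49 on AT-II, a difference of -0.12 ± 0.84. One array of each surface stood well above the others, AT-I replicate 2 and AT-II replicate 4. Tnf gave 6.49, 6.83, 6.03 and 6.07 on AT-I and 6.62, 6.55, 6.74 and 7.33 on AT-II, with the same 2 arrays highest, and Ccl2, a monocyte attractant, differed by -0.25 ± 0.27. Il33, an alarm cytokine of stromal cells, was without overlap, at 6.82 to 6.92 on AT-I and 7.09 to 7.32 on AT-II, a difference of -0.30 ± 0.19. It was the only 1 of 19 measured inflammatory cytokine genes without overlap, where the shares over all genes were 0.789% higher and 1.41% lower.

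NF-kB feedback genes are induced by inflammatory signals, and some of them damp those signals. On this list, 12 of 12 measured members lay below 0 with a median of -0.26, and 0 passed the test. Tnfaip2, an NF-kB target, measured 7.55, 7.54, 7.35 and 7.53 on AT-I and 7.61, 7.87, 8.01 and 7.77 on AT-II, without overlap, with a difference of -0.33 ± 0.12. It was the only member without overlap, where the shares over all genes were 0.789% higher and 1.41% lower. Zc3h12a, an RNase that degrades cytokine messages, gave 6.93, 7.76, 6.85 and 6.92 on AT-I and 7.45, 7.50, 7.49 and 7.72 on AT-II. AT-I replicate 2 exceeded every AT-II value for Zc3h12a while the other 3 AT-I arrays lay below them all. The median of the list ran from -0.35 to -0.15 in the other settings and was -0.18 with each array centred.

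Interferon response genes lay below 0 in 22 of 24 members with a median of -0.18. In AT-I replicate 3, 23 of the 24 were the lowest of their group, as were 6431 of all 17245 genes. Without that array the median was 0.03. Usp18, which limits interferon signalling, measured 7.26, 7.84, 6.78 and 7.33 on AT-I and 7.54, 7.93, 7.74 and 7.60 on AT-II. AT-I replicate 3 was the lowest of the 8, and the difference was -0.40 ± 0.27. Neutrophil genes had a median of 0.10 over 22 members, with S100a8 at 0.18 ± 0.17 and S100a9 at 0.11 ± 0.13. The neutrophil median was -0.05 without AT-I replicate 2.

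Adipocyte genes had the lowest median of the 41 lists. All 16 measured members lay below 0, with a median of -0.36, and 0 passed the test. No member was without overlap, where the shares over all genes were 0.789% higher and 1.41% lower. Plin1, which coats fat droplets, measured 6.08, 6.73, 6.26 and 7.39 on AT-I and 6.84, 8.07, 6.73 and 7.67 on AT-II, a difference of -0.71 ± 0.34. Lipe, the hormone-sensitive lipase, gave 7.26, 7.81, 7.22 and 7.50 on AT-I and 7.71, 8.24, 7.70 and 8.19 on AT-II, where only AT-I replicate 2 exceeded any AT-II value. Cidec, a fat droplet protein, gave 6.47, 7.38, 6.45 and 7.64 on AT-I and 7.25, 8.36, 7.45 and 8.01 on AT-II, a difference of -0.78 ± 0.44. Lpl and Fabp4 differed less, by -0.13 ± 0.48 and -0.17 ± 0.37. Macrophages also make both, and the part of macrophages in these values was not tested.

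AT-II replicate 2 held the highest value of its group for 11 of the 16 adipocyte genes and AT-I replicate 1 the lowest for 8. The counts over all 17245 genes were 4996 and 3150. The summed log2 level of the 16 ran from 118 to 128 on AT-I and from 123 to 135 on AT-II, so the groups overlapped. The median stayed below 0 in the other 20 settings, from -0.52 without AT-I replicate 2 to -0.24 with the array spread as a covariate. Without AT-II replicate 2 it was -0.26.

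Hypoxia and glycolysis genes had 22 of 23 measured members below 0, a median of -0.20 and 0 past the test. Pfkfb3, which sets the pace of glycolysis, measured 7.85, 8.08, 8.27 and 8.01 on AT-I and 8.30, 8.75, 8.45 and 8.37 on AT-II. The groups did not overlap and the difference was -0.42 ± 0.15. No other member was without overlap, where the shares over all genes were 0.789% higher and 1.41% lower. Egln3, an oxygen-sensing hydroxylase that hypoxia induces, gave 7.77, 8.58, 8.99 and 7.73 on AT-I and 8.61, 8.78, 9.12 and 9.18 on AT-II. Slc2a1, a glucose transporter, gave 9.10, 9.96, 10.37 and 8.71 on AT-I and 9.68, 10.58, 10.36 and 10.53 on AT-II, a difference of -0.75 ± 0.47. For both genes AT-I replicates 1 and 4 were the lowest arrays, and AT-I replicate 3 lay within the AT-II range. The angiogenic factor Vegfa differed by -0.36 ± 0.28. The list's median was between -0.28 and -0.11 in the other settings. It was -0.13 without AT-II replicate 2 and -0.11 with each array centred.

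**Figure D3:**
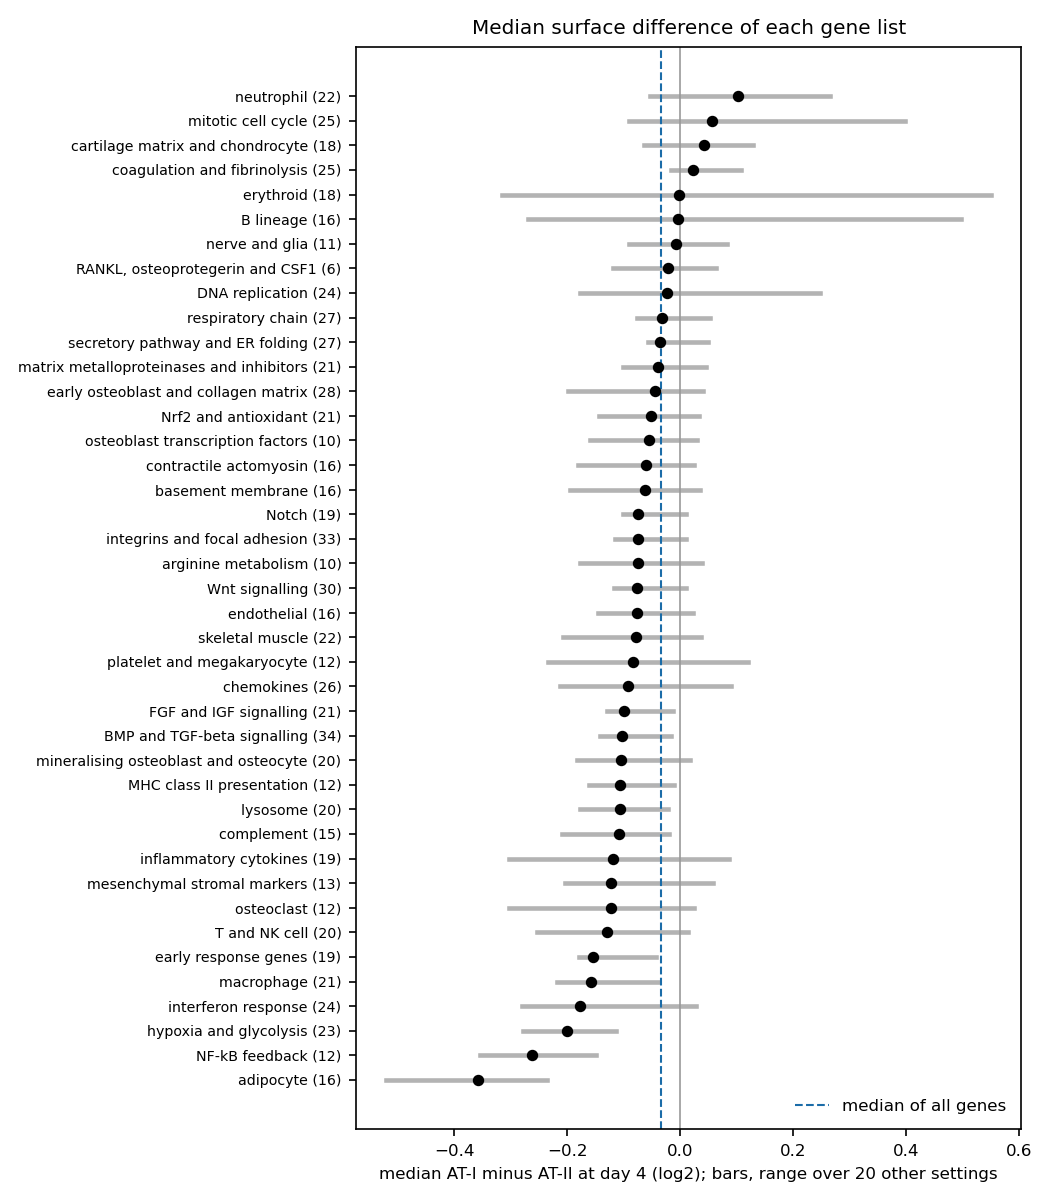
Median difference AT-I minus AT-II at day 4 (log2, horizontal axis) of 41 gene lists, with the number of measured genes in brackets. Points are the fit described in the text, bars the range over 20 other settings, and the dashed line is the median of all genes at -0.03. The adipocyte, NF-kB feedback and hypoxia lists keep their whole bar below 0, while the bars of erythroid, B lineage and mitotic genes cross it widely.

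The lists were chosen with results of these arrays known, so their medians describe these 8 arrays and give no independent support. None of the 41 lists had a member past the test. Besides the adipocyte, NF-kB, hypoxia, macrophage, lysosome and MHC class II lists, the lists that kept 1 sign in all 20 other settings were BMP and TGF-beta signalling, FGF and IGF signalling, complement (median -0.11) and early response genes (-0.15). The median of all genes was -0.03 as deposited and 0.05 once arrays were centred on their medians. Medians near -0.10 are close to the -0.09 of genes with a mean of at least 6. Mesenchymal stromal, endothelial, skeletal muscle and cartilage lists had medians of -0.12, -0.08, -0.08 and 0.04, each with the other sign in at least 1 setting. Acta1, a skeletal muscle actin, and Col2a1, the collagen of cartilage, differed by -0.11 ± 0.25 and 0.02 ± 0.14, and both were at most 7.51 on all 8 arrays.

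The 10 genes with the smallest p that were higher on AT-I lay at or below 6.69 on every array. Vom2r31, a pheromone receptor gene, measured 5.49, 4.93, 4.94 and 4.11 on AT-I and 3.42, 4.09, 3.76 and 3.79 on AT-II. It did not overlap, and its difference was 1.10 ± 0.24. The odorant receptor genes Or2g7 (0.68 ± 0.15) and Or9k2 (0.79 ± 0.22), the transcription factor gene Sall1 (0.47 ± 0.13), Tdh, Prr33 and Zfp658l1 were also without overlap. Mug2, Slco6d1 and the taste receptor gene Tas2r136 overlapped through 1 or more arrays.

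Among the 10 with the smallest p that were lower on AT-I, Ccdc62 measured 5.72, 5.96, 5.82 and 5.94 on AT-I and 6.55, 6.15, 6.30 and 6.34 on AT-II, a difference of -0.47 ± 0.12. Ikbke, a kinase of interferon and NF-kB signalling, gave 7.47, 7.84, 7.62 and 7.72 on AT-I and 7.88, 8.13, 7.89 and 8.06 on AT-II, without overlap. Pidd1, which takes part in the response to DNA damage, Mapk8ip3, a JNK scaffold of axonal transport, Ppcs, an enzyme of coenzyme A synthesis, Lrfn3, Dennd4b and S100a7a were without overlap, with differences between -0.51 and -0.38. Zfand2a, a gene induced by arsenite, had the largest difference of the 10, -0.69 ± 0.22, and Lrrc25 had -0.57 ± 0.17.

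Smell, pheromone and taste receptor genes, which are little used outside sensory tissue, are a list formed after these values were seen. They made up 7.64% of the genes tested and 17.6% of the 136 genes higher on AT-I without overlap, 24 in number, and their median difference over 1318 genes was 0.40. Their median level was 5.43, 4.72, 5.82 and 5.03 in AT-I replicates 1 to 4 and 4.55, 5.06, 5.11 and 4.58 in AT-II. These medians lay below 6, where genes were more often higher on AT-I than brighter genes were. The receptor genes were not compared with other genes of that level. The array with the narrowest spread, AT-I replicate 3, had the highest median, and the arrays with the widest spread in each group, AT-I replicate 2 and AT-II replicate 4, were at 4.72 and 4.58. The part of array spread in these genes was not tested.

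Surface differences at day 4 were also set against those at day 2. The median absolute difference was 0.12 at day 4 and 0.26 at day 2. The array spread moved with this: at day 2 the interquartile range was 2.48 to 2.98 on AT-I and 3.05 to 3.43 on AT-II, without overlap, while the day 4 groups overlapped. The part of array spread in the larger day 2 differences was not tested. With limma, 0 of 17245 genes (0%) had a surface difference that changed between the days at an adjusted p under 0.05, where 707 had an unadjusted p under 0.05 and the smallest adjusted p was 0.924. Acadm, an enzyme of fatty acid oxidation, was among the 5 with the smallest p above 0: its surface difference was -0.55 at day 2 and 0.05 at day 4. Vom2r36, a pheromone receptor gene, was at 0.80 and -0.22. Aspn (-0.66 at day 2 and 0.45 at day 4) and Omd, a keratan sulphate proteoglycan of bone (-0.78 and -0.11), had a higher difference at day 4, and Isg15, an interferon-induced protein, a lower one (0.98 and -0.27). None of these changes passed the test.

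Within each surface, the arrays differed in ways that the surface did not account for. The within-group SD of a gene had a median of 0.228 on AT-I and 0.176 on AT-II, and it was larger on AT-I for 67.0% of genes. Without AT-I replicate 3 the AT-I median was 0.188. Of the 10 genes with the largest pooled SD at day 4, Cxcl2, Il1a, Ccl3, Acod1, Il23a and Nos2 are inflammatory genes of neutrophils and macrophages, and the others were Ifit1, Mx2, RT1-Bb and Mmp7.

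Cxcl2, a neutrophil attractant, measured 7.64, 10.73, 8.83 and 6.59 on AT-I and 6.89, 8.19, 10.20 and 11.31 on AT-II. The range within each surface exceeded 4 on the log2 scale, and the surface difference was -0.70 ± 0.99. Il1a gave 5.83, 8.34, 5.34 and 4.73 on AT-I and 4.86, 5.10, 6.13 and 8.27 on AT-II. Nos2, the inducible nitric oxide synthase, gave 8.18, 9.97, 7.68 and 7.21 on AT-I and 7.68, 8.87, 8.49 and 10.28 on AT-II. For all of these genes AT-I replicate 2 and AT-II replicate 4 were the highest arrays of their groups, as they were for 9 of 19 inflammatory cytokine genes (47.4%), 10 of 26 chemokines (38.5%) and 14.1% of all genes.

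**Figure D4:**
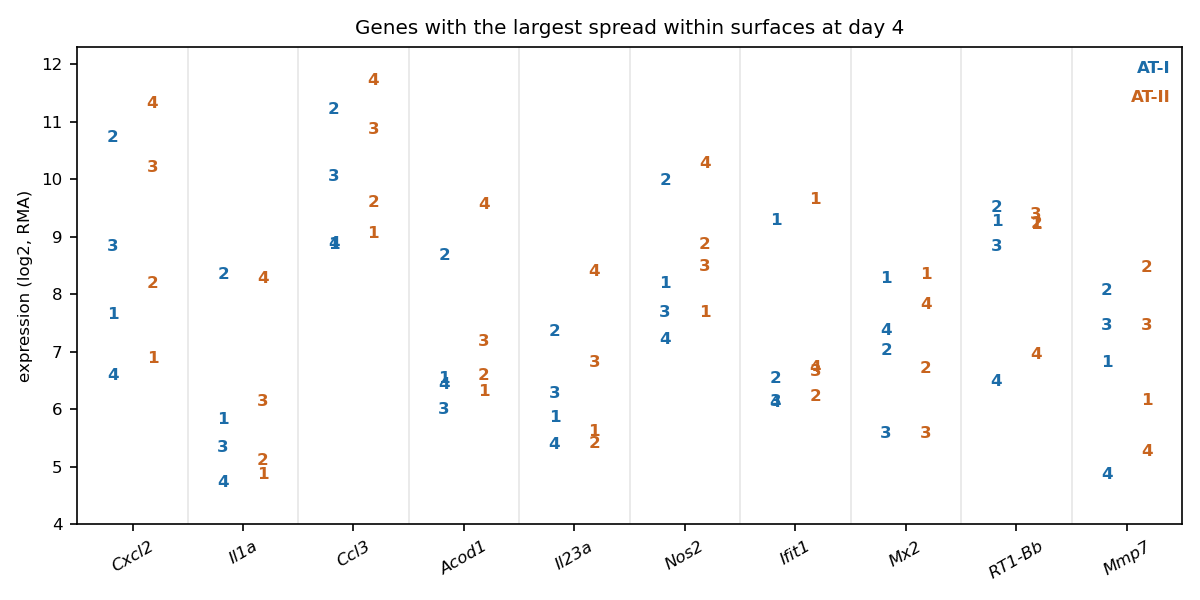
Expression (log2, vertical axis) of the 10 genes with the largest spread within surfaces at day 4, where each digit is 1 array and gives its replicate number, on the left for AT-I and on the right for AT-II. Array 2 of AT-I and array 4 of AT-II lie on top for the 6 inflammatory genes at the left, while Mx2 and Mmp7 keep 1 order of the digits on both surfaces, Ifit1 shares its highest digit (1) and RT1-Bb its lowest (4).

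In a second set of genes, the same replicate number was highest or lowest on both surfaces. Ifit1, an interferon-induced protein, measured 9.29, 6.54, 6.13 and 6.11 on AT-I and 9.64, 6.23, 6.65 and 6.72 on AT-II, with replicate 1 far above the others on both. RT1-Bb, a class II histocompatibility chain, gave 9.27, 9.50, 8.83 and 6.48 on AT-I and 9.22, 9.23, 9.38 and 6.96 on AT-II, with replicate 4 far below. Mx2, an antiviral GTPase, gave 8.28, 7.02, 5.58 and 7.37 on AT-I and 8.34, 6.70, 5.57 and 7.82 on AT-II. Mmp7, a matrix protease, gave 6.82, 8.06, 7.46 and 4.87 on AT-I and 6.16, 8.47, 7.46 and 5.27 on AT-II. Replicates 1, 4, 2 and 3 fell in that order for Mx2 on both surfaces, and 2, 3, 1 and 4 for Mmp7. These 4 genes were singled out after their values were seen, and over all genes the arrays with the same number did not all deviate together.

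Erythroid genes differed between arrays of both surfaces. The mean level of 18 erythroid genes was 10.41, 10.82, 9.53 and 10.07 in AT-I replicates 1 to 4 and 10.68, 9.41, 10.15 and 10.70 in AT-II. All 18 were the highest of their group in AT-I replicate 2, and all 18 were the lowest of their group in AT-II replicate 2. Of all 17245 genes, 5737 and 4854 were so. The group means were 10.21 ± 0.546 and 10.24 ± 0.606 (SD, n = 4 each), and the median surface difference was 0.00, from -0.32 without AT-II replicate 2 to 0.55 with the replicate block and array spread. Ank1, a protein of the red cell skeleton, spanned 7.77 to 9.63 on AT-I and 8.07 to 9.61 on AT-II, while Alas2, which starts haem synthesis, spanned 11.60 to 12.53 and 11.66 to 12.27. Summed log2 levels of the 18 erythroid genes ran from 172 to 195 on AT-I and from 169 to 193 on AT-II.

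Proliferation and B lineage genes were high in some of the same arrays. All 25 mitotic genes and 22 of 24 DNA replication genes were the highest of their group in AT-I replicate 2, and 18 of each list were the highest in AT-II replicate 4. These arrays were the highest of their groups for 5737 and 4431 of all 17245 genes. Mki67, a marker of dividing cells, measured 11.16, 11.47, 10.62 and 11.12 on AT-I and 11.30, 10.70, 10.80 and 11.45 on AT-II, a difference of 0.04 ± 0.27. Top2a, a topoisomerase of dividing cells, differed by 0.11 ± 0.23. Of 16 B lineage genes, 13 were the highest in AT-I replicate 2 and 13 in AT-II replicate 4, and Cd79b, a chain of the B cell receptor complex, spanned 10.27 to 11.05 on AT-I and 9.80 to 11.20 on AT-II. AT-I replicate 2 and AT-II replicate 4 were also the arrays with the widest spread of values in their groups, and the part of that spread in these lists was not tested.

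**Figure D5:**
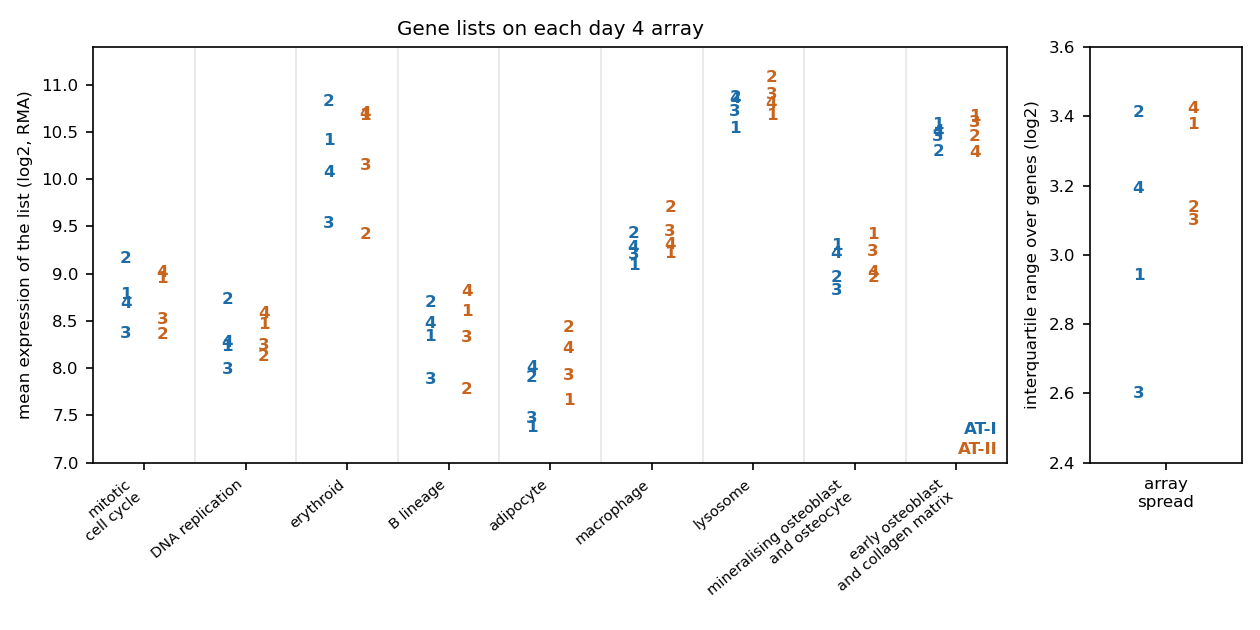
Mean expression (log2, left vertical axis) of 9 gene lists and the interquartile range of each array (log2, right panel), where each digit is 1 day 4 array and gives its replicate number, on the left for AT-I and on the right for AT-II. Array 2 of AT-I is highest and array 2 of AT-II lowest for the mitotic, erythroid and B lineage lists, and the digits of the surfaces overlap in every list.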

How the data were processed

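RNA of 16 samples was hybridised to Affymetrix Rat Gene 1.1 ST arrays. The submitters' processing notes name RMA and Affymetrix Expression Console, so the deposited values were read as log2 expression; this base was inferred, not stated. No version or genome build is named (not given in the sources used here). Values ran from 1.82 to 14.0.

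Of 29214 rows, 18644 named 1 gene in the platform annotation (962 named several, 9608 none), and 18460 of these had an identifier in the GRCr8 table, which changed 0 symbols. Of the rows of a gene, the one with the highest mean over all arrays was used (879 genes had more than 1), giving 17245 genes.

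limma 3.58.1 in R 4.3.3 (lmFit, eBayes, two-sided, Benjamini-Hochberg, adjusted p under 0.05) was fitted to all 4 groups, with AT-II day 2 replicates 2 and 3, near-identical arrays, averaged as 1 sample, so the spread is shared over 15 samples (residual degrees of freedom 11, prior 4.44). Intervals are at 95%. No set test was run. The labels do not say that numbers mark rats, so p-values ignore any pairing, and the number of arrays limits the precision. Tested on simulated data, the fit recovered 85.3% of 200 genes changed by 1 among 17245 in the day 4 comparison, with 5.11% false calls, and its intervals covered 95.2%. The simulated deviations were independent between genes and arrays. They held no shift shared by the genes of an array, so the recovery in the real arrays may differ.

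The comparison, the 41 lists (800 of 891 entries measured), the panel and the tests were chosen with earlier results of these data known. Named genes were the 10 with the smallest p in each direction, the panel, up to 3 members of each list with the smallest p, the 10 with the largest pooled SD, and the 5 with the smallest p in each direction for the difference between days; some were left unnamed. Genes outside this rule (Cidec, Lpl, Fabp4, Slc2a1, Acta1, Col2a1, Alas2, Cd79b and the genes differing by over 1) were named after their values were seen. Alternatives covered normalization, row choice, filters, weights, blocks and each day 4 array left out in turn. Figures used Python 3.11.15 and matplotlib 3.10.9.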

Additional observations from a re-analysis of the deposited data

Results flagged for a closer look

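Dixon's criterion at the 95% level was applied to 490 series of 4 day 4 arrays. These were each named gene, each list and the array interquartile range, on each surface. In 22 series an array was apart from the other 3, which chance reaches in about 1 of 20 series. On AT-I, replicate 3 was apart for Bmp2 at 5.60 (others 6.27 to 6.38), Dntt at 5.89, Fn1 at 11.90, Tnfaip2 at 7.35 and the nerve and glia list at 5.81. AT-I replicate 2 was apart for Fgf23 at 5.31, Flt3 at 7.60 and Zc3h12a at 7.76. AT-I replicate 4 was apart for Il6 at 4.62, Itgav at 10.63, S100a8 at 11.37 and Tnfrsf11a at 7.84 (others 6.94 to 7.08), and AT-I replicate 1 for Itga5 at 8.62 and Ifit1 at 9.29 (others 6.11 to 6.54). On AT-II, replicate 1 was apart for Ifit1 at 9.64 (others 6.23 to 6.72), Cox4i1 at 10.84 and Egr3 at 7.28. AT-II replicate 2 was apart for Ccl17 at 5.36 and Hbb at 13.25, replicate 3 for Lama5 at 5.97, and replicate 4 for RT1-Bb at 6.96 (others 9.22 to 9.38) and the FGF and IGF signalling list at 7.87. Ifit1 was apart in replicate 1 on both surfaces. RT1-Bb was also lowest in AT-I replicate 4.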

How the results depend on the processing

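In 21 other settings, of which 8 left out 1 day 4 array and 1 was added after the data were seen, limma called 0 genes between the surfaces at day 4, with unadjusted counts from 249 (genes with a mean of at least 6) to 2006 (without AT-I replicate 2) against 687, and 258 without AT-I replicate 3. The smallest adjusted p in any of them was 0.126, without AT-I replicate 4. The surface difference by day also had 0 calls in each setting where it was fitted. Genes with an interval within 1 of 0 numbered 15569 to 16548 with 1 array left out, and 10106 of the fewer genes with a mean of at least 6. Same-numbered arrays of the surfaces deviated together with correlations over genes of 0.13, -0.34, 0.47 and 0.20, so the numbers were not taken to pair the samples; with array spread removed, an alternative chosen after seeing the data, they were 0.34, 0.30, -0.27 and -0.16. The fit with the replicate number as a block called 0 genes, with 1019 at an unadjusted p under 0.05 for the day 4 arrays, 1327 for all 16 and 1069 with array spread added. The exact permutation test of array spread gave p = 0.343 over genes and over all rows. Of 4002 values of named genes in other settings, 165 had the other sign, 30 moved by more than 1 pooled SD and 0 passed the threshold; of 820 list medians, 35 moved by more than 1 SD of the list level. With 4 arrays per surface, the data leave unresolved any difference within a gene's interval, which at the median reached 0.34 to either side.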

Other observations

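Some genes outside the groups above had an unadjusted p under 0.05 in limma but an adjusted p of 0.913. Sod3, the extracellular superoxide dismutase, measured 5.29, 5.69, 5.40 and 5.92 on AT-I and 6.08, 6.38, 5.85 and 6.59 on AT-II, with overlap through AT-I replicate 4 and AT-II replicate 3, a difference of -0.65 ± 0.24. F13a1, the clotting factor XIII chain that macrophages and platelets make, gave 10.54, 10.51, 10.82 and 9.98 on AT-I and 11.07, 11.16, 10.75 and 10.69 on AT-II, a difference of -0.45 ± 0.16. Lck, a kinase of T cells, gave 6.45, 7.11, 6.29 and 6.78 on AT-I and 7.05, 7.03, 7.01 and 7.20 on AT-II, and the 20 measured T and NK cell genes had a median of -0.13. Ngfr, a neurotrophin receptor, and Myog, a muscle transcription factor, had differences of 0.29 ± 0.13 and 0.34 ± 0.15. Both lay below 6 on every day 4 array, where genes were more often higher on AT-I than brighter genes were.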
